A study of Phyllostachys edulis with 2 samples.

Results

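WRKY transcription factors were examined in lateral buds of the rhizome of Moso bamboo (Phyllostachys edulis), taken underground at the early shoot stage and at the germination stage. The buds were wild type and were pooled, and 1 RNA-seq library was made for the early shoot stage and 1 for the germination stage. A transcript was taken as a WRKY member when the description of its best protein match contained the word WRKY, in upper or lower case. This was the case for 19 of 148492 assembled transcripts, which came from 9 of 85391 loci. The description is the only evidence of identity here, and 33.5% of all transcripts had any match, so WRKY transcripts without such a description are not among the members. In total, 7878826 reads were counted in early shoot and 4481221 reads in germination. As each stage had 1 library, no difference could be set against replicate error, and p-values are not given. Every interval given is an exact 95% interval for counting error only, and reads amplified by PCR are not independent molecules. Fewer cells of one type and less RNA in each cell cannot be told apart in such pooled tissue.

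WRKY proteins form one of the large transcription factor families of plants. They are named after a short conserved amino acid motif in their DNA-binding domain, which is followed by a zinc finger, and they bind the W-box element in promoters. Many are switched on within a short time by pathogens, wounding, salicylic acid or drought, often downstream of MAP kinases, and others act in senescence, seed germination and hormone responses. The numbers in WRKY names were given separately in each cereal, so that a wheat WRKY and a rice WRKY of the same number need not be counterparts. The members found here were matched to proteins of wheat, rice, maize, barley and Brachypodium, and each is called by the name in its match.

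WRKY transcripts were less abundant in early shoot than in germination. All members together had 659 reads in early shoot and 1572 reads in germination. As a share of the table total, this was 83.6 ppm (interval from 77.4 to 90.3) in early shoot and 351 ppm (from 334 to 369) in germination. For all ratios, reads in early shoot were divided by 1.8, the median count ratio between the stages among transcripts detected in each. After scaling, the summed WRKY reads were 4.29-fold lower in early shoot, which is -2.10 as a log2 ratio (interval from -2.24 to -1.97). Negative log2 ratios stand for lower reads in early shoot throughout.

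The sum rested mainly on 2 loci. The WRKY DNA-binding protein of Locus_6138 held 541 of the 659 reads in early shoot and 813 of the 1572 in germination, and WRKY8 held 19 in early shoot and 502 in germination. Without Locus_6138 the log2 ratio was -3.53 (interval from -3.83 to -3.25), without WRKY8 it was -1.59 (from -1.73 to -1.45), and without both it was -2.22 (from -2.57 to -1.88). The size of the sum therefore followed the choice of loci, while the direction stayed the same in each case.

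At the level of single transcripts, 18 of the 19 members had fewer reads in early shoot. Of the 19, 10 belonged to Locus_6138 and may share reads, so they are not independent. The same count over all transcripts was not made. RPKM, the reads relative to transcript length and library total, allows transcripts of different length to be compared. In germination the members covered RPKM from 4.46 for WRKY3 to 93.8 for WRKY8. In early shoot they covered RPKM from 0 for WRKY24 to 6.37 for a WRKY51 transcript. The order of the single transcripts also differed, with WRKY8 first in germination and the WRKY51 and OsWRKY55 transcripts first in early shoot. Summed per locus, the RPKM in early shoot was highest for the WRKY DNA-binding protein, at 23.3, followed by 11.85 for WRKY51.

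**Figure D1:**
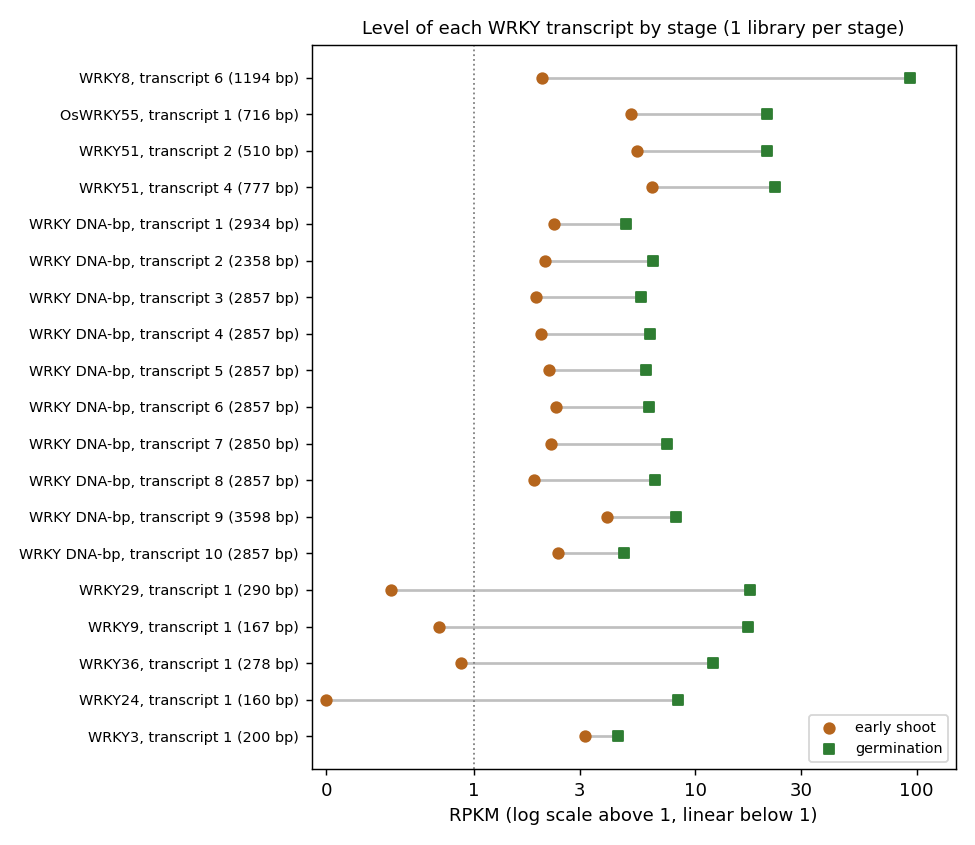
RPKM of each of the 19 WRKY transcripts (rows, with transcript number and length) in early shoot (circles) and germination (squares), on an axis that is logarithmic above 1 and linear below it; the dotted line marks RPKM 1.0. Every circle lies left of its square, and 4 circles lie below 1.0, those of WRKY29, WRKY9, WRKY36 and WRKY24.

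WRKY8, matched to a wheat protein, had the lowest log2 ratio of the members with reads in both stages, although the wide interval of WRKY29 overlapped with it. Its transcript of 1194 bp in Locus_1357 had 19 reads in early shoot and 502 in germination. The RPKM was 2.02 in early shoot and 93.8 in germination. Ranked by RPKM among all transcripts, it stood at 116577 in early shoot and at 716 in germination. The reads were 47.6-fold lower in early shoot after scaling (log2 ratio -5.57, interval from -6.32 to -4.91). Of 32444 loci with at least 20 reads, 250 (0.771%) had a lower log2 ratio than the WRKY8 transcript. This sets 1 transcript beside whole loci, summed over all their transcripts, so it is no rank among transcripts. The whole locus of WRKY8 had a log2 ratio of -0.55.

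Locus_1357 held 12 transcripts, and only 1 of them was described as WRKY. The other 11 had 4315 reads in early shoot and 3021 in germination, a log2 ratio of -0.33 (interval from -0.40 to -0.27). Those with a protein match fell into separate sets. Transcripts 5, 9 and 10 (713 to 774 bp) matched an unnamed predicted protein of barley and followed WRKY8 closely. They had 8, 17 and 12 reads in early shoot, against 302, 241 and 328 in germination. Their summed log2 ratio of -5.41 (from -5.92 to -4.93) overlapped with that of WRKY8. The 3 transcripts without a match had 38 reads in early shoot and 41 in germination.

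Transcripts 8, 11 and 12 of the same locus matched 14-3-3E of barley, a member of the adaptor proteins that bind phosphorylated partners, and differed little between stages. They had 865, 1295 and 819 reads in early shoot, against 480, 586 and 424 in germination. Their summed log2 ratio was 0.15 (interval from 0.06 to 0.24), and that of the transcripts 4 and 7, matched to a hypothetical protein of sorghum, was 0.18 (from 0.04 to 0.32). The other scalings raised every log2 ratio by 0.03 to 0.08, the ratios of WRKY8 included. The 13 transcripts of 7 other loci that were described as 14-3-3 had 1300 reads in early shoot and 1156 in germination, with a log2 ratio of -0.68 (from -0.79 to -0.56).

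The total of Locus_1357 therefore did not describe WRKY8. Whether the assembly joined transcripts of separate genes in this locus cannot be told from the tables, so the shares of WRKY8 are shares of an assembled locus and not necessarily of a gene. WRKY8 made up 0.438% of the reads of the locus in early shoot (interval from 0.264% to 0.684%) and 14.2% in germination (from 13.1% to 15.4%). Together with the transcripts of the barley predicted protein, its share was 1.29% in early shoot and 39.0% in germination. The 14-3-3E transcripts had 68.7% of the reads in early shoot and 42.3% in germination. The whole locus had a log2 ratio of -0.55 (from -0.61 to -0.48) compared with -5.57 for WRKY8. How the reads were shared out among transcripts of a locus is not stated with the tables, so reads common to both sets may have been assigned to either. The assembly also gave WRKY8 and the transcripts that followed it a lower confidence field, between 0.1 and 0.2, than the 14-3-3E and sorghum-matched transcripts, between 0.42 and 0.64. The tables do not define this field.

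**Figure D2:**
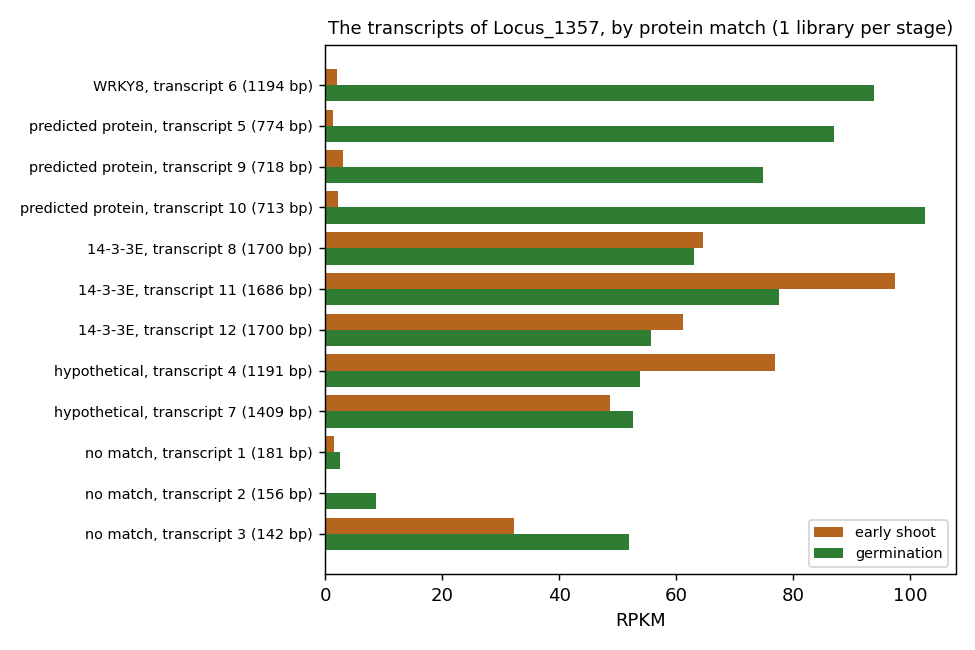
RPKM of the 12 transcripts of Locus_1357 in early shoot (upper bars) and germination (lower bars), grouped by protein match. The WRKY8 transcript and the 3 transcripts of a barley predicted protein have RPKM of 1.31 to 3.01 in early shoot and 74.9 to 103 in germination, whereas the 14-3-3E and sorghum-matched transcripts lie between 48.6 and 97.5 in both stages.

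OsWRKY55, matched to a rice WRKY with a zinc finger domain, was represented by 1 transcript of 716 bp in Locus_1809. It had 29 reads in early shoot and 68 in germination, and its RPKM was 5.14 in early shoot and 21.2 in germination. The reads were 4.22-fold lower in early shoot (log2 ratio -2.08, interval from -2.76 to -1.43). The other transcripts of the locus, both 863 bp long, matched a rice protein listed by its locus name alone. They had 42 and 46 reads in early shoot, against 113 and 111 in germination, a summed log2 ratio of -2.20 (from -2.57 to -1.83). In this locus all 3 transcripts had the same ratio within counting error. The OsWRKY55 transcript held 24.8% of the reads of the locus in early shoot (from 17.3% to 33.6%) and 23.3% in germination (from 18.6% to 28.6%).

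WRKY51, named from a maize protein with WRKY and zinc finger domains, had 2 transcripts in Locus_5327. Transcript 2 (510 bp) had 22 reads in early shoot and 48 in germination, and transcript 4 (777 bp) had 39 in early shoot and 80 in germination. Their RPKM were 5.48 and 6.37 in early shoot, the highest of all single member transcripts at that stage, and 21.0 and 23.0 in germination. Summed, they were 3.78-fold lower in early shoot (log2 ratio -1.92, interval from -2.38 to -1.47). The remaining transcripts of the locus, matched to a sorghum hypothetical protein and to an unknown maize protein, had 32 and 2 reads in early shoot, against 97 and 19 in germination. Their summed log2 ratio of -2.62 (from -3.22 to -2.06) was lower than that of the WRKY51 transcripts, but the intervals overlapped. The share of WRKY51 in the reads of the locus was 64.2% in early shoot (from 53.7% to 73.8%) and 52.5% in germination (from 46.0% to 58.9%), also with overlapping intervals.

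The putative WRKY DNA-binding protein of Locus_6138, matched to Brachypodium sylvaticum, had the most reads and the longest transcripts of the family. All 10 transcripts of the locus were WRKY members, between 2358 and 3598 bp long. Single transcripts had 39 to 113 reads in early shoot and 61 to 132 in germination. The RPKM of single transcripts was from 1.87 to 3.99 in early shoot and from 4.76 to 8.19 in germination. Summed over the 10 transcripts, the RPKM was 23.3 in early shoot, the highest of the WRKY loci, and 62.4 in germination. Summed over the locus, the 541 reads in early shoot and 813 in germination gave a 2.70-fold lower value in early shoot (log2 ratio -1.44, interval from -1.60 to -1.28). This was the smallest difference among the members with at least 20 reads.

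The transcripts of Locus_6138 could not be told apart by their ratio. Their log2 ratios lay between -1.85 and -1.02, with all 10 intervals below 0, and values between -1.45 and -1.30 were inside every one of them. Of the 10 transcripts, 6 had the same length of 2857 bp. These 6 had 42 to 54 reads in early shoot and 61 to 84 in germination. The ratio of variance to mean of their reads was 0.551 in early shoot and 0.855 in germination. As the division of reads among transcripts of a locus is not stated, these ratios cannot be set against random counting.

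The other 5 members were short transcripts that made up a locus each, and they had few reads. Wheat WRKY29 (290 bp) had 1 read in early shoot and 23 in germination, with RPKM of 0.44 in early shoot and 17.7 in germination. The log2 ratio was -5.37, with a wide interval from -10.7 to -2.75. Wheat WRKY9 (167 bp) had 1 read in early shoot and 13 in germination, a log2 ratio of -4.55 (from -9.96 to -1.81). Barley WRKY36 (278 bp) had 2 reads in early shoot and 15 in germination, a log2 ratio of -3.75 (from -6.93 to -1.65). For these 3, even the end of the interval nearest 0 was beyond -1.

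WRKY24, matched to a rice protein known in rice aleurone cells as a repressor of gibberellin and abscisic acid responses, had no reads in early shoot and 6 in germination. Set against a floor of 3 reads for the empty library, WRKY24 was at least 3.6-fold lower in early shoot, a value that leaves out the counting error of the 6 reads. With that error included, the end of the interval nearest 0 was a log2 ratio of -1.08. Wheat WRKY3 (200 bp) was the exception of the family, with 5 reads in early shoot and 4 in germination. Its scaled log2 ratio of -0.53 had an interval from -2.74 to 1.81, so that no difference was detectable at this depth in either direction. Summed, the 5 short loci had 9 reads in early shoot and 61 in germination, a log2 ratio of -3.61 (from -4.80 to -2.59).

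**Figure D3:**
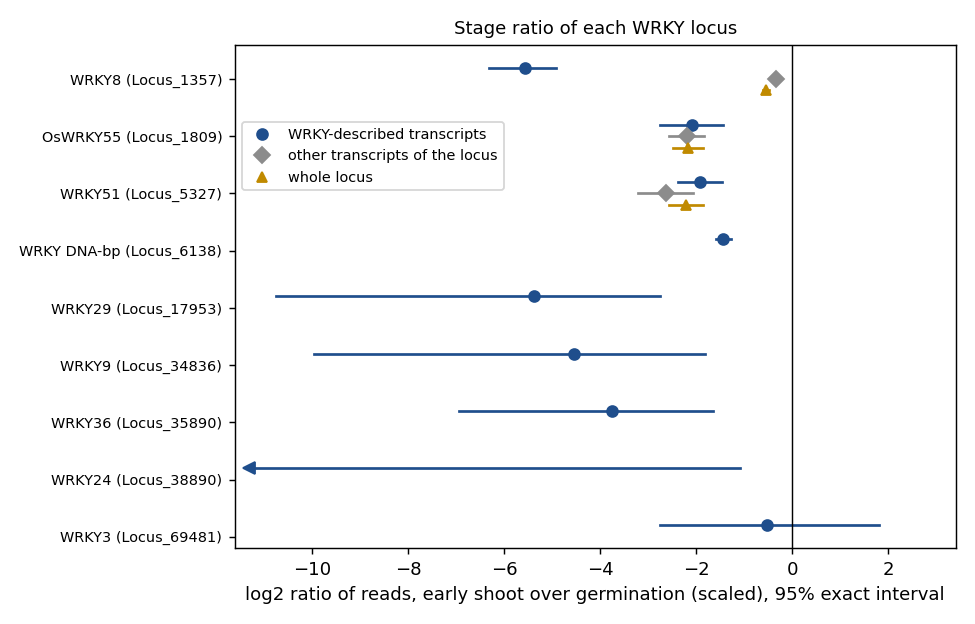
Scaled log2 ratio of early shoot over germination for each of the 9 WRKY loci with its 95% exact interval, for the WRKY-described transcripts (circles), the other transcripts of the locus (diamonds) and the whole locus (triangles); an arrow marks an interval without lower end, as WRKY24 had no reads in early shoot. Of the 9 WRKY intervals, 8 lie wholly below -1, and in Locus_1357 the other transcripts and the whole locus lie far from WRKY8.

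Ordered by log2 ratio, the loci ran from WRKY8 and WRKY29 over WRKY9, WRKY36, OsWRKY55, WRKY51 and the WRKY DNA-binding protein to WRKY3, while WRKY24 has no ratio. Each neighbouring pair in this order had overlapping intervals. The interval of WRKY8 did not overlap with those of OsWRKY55, WRKY51, the WRKY DNA-binding protein or WRKY3. The interval of the WRKY DNA-binding protein also lay above those of WRKY29, WRKY9 and WRKY36, though narrowly for WRKY36 (-1.60 against -1.65). How reads were divided among the transcripts of Locus_6138 is not stated. Reads counted more than once would make its interval too narrow. The median over the 8 loci with reads in both stages was -2.92, and over all 9 loci it was -2.08 when WRKY24 was set to its value at the floor. Over all loci with reads in both stages the median was -0.08.

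Read against all loci, 8 of the 9 WRKY loci had an interval below 0 and 0 had one above. Of all loci with a read, 14.9% had an interval below 0 and 11% had one above 0. Many of these loci had too few reads for either. Of the loci with at least 20 reads, 25.3% had an interval below 0 and 9.65% had one below -1. Counted in the same way, over all transcripts of each locus, 8 of the 9 WRKY loci had an interval below 0. Of the 9 loci, 5 had at least 20 reads, and the interval was below -1 in 4 of them. The exception was Locus_1357, with the 14-3-3E transcripts, at -0.55 (from -0.61 to -0.48). WRKY29, among the 4, reached 20 reads only through the group in which it was high, so these counts are given as a description.

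Single transcripts were also called by a G-fold value, a cautious log2 ratio that is pulled towards 0 as reads become fewer. It is the posterior quantile of the ratio at 0.01, taken on the side of 0, and it is 0 where the sign is uncertain. A transcript was called when this value passed 1.0 in size and RPKM exceeded 1.0 at each stage. In all, 15 WRKY transcripts passed the RPKM cutoff, and 7 of them, from 4 loci, were called lower in early shoot. The share called lower was 3.77% over all transcripts above the cutoff. No WRKY transcript was called higher in early shoot, where the share over all transcripts was 1.4%. The called transcripts were WRKY8 (-4.81), OsWRKY55 (-1.34), both WRKY51 transcripts (-1.12 and -1.24) and 3 of the WRKY DNA-binding protein (-1.06 to -1.22). Just outside the threshold were 2 further transcripts of that protein, with -0.98 and -0.97. As the intervals of all transcripts of Locus_6138 overlapped, those called there did not differ detectably from those that were not.

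The RPKM cutoff removed members that were low in early shoot. WRKY29, WRKY9, WRKY36 and WRKY24 did not pass, and each of them was above 1.0 in germination and at or below an RPKM of 0.91 in early shoot. Without the cutoff, 10 WRKY transcripts were called lower in early shoot, the additions being WRKY29 (-2.53), WRKY9 (-1.63) and WRKY36 (-1.49). The share over all transcripts with a read was then 4.72%. WRKY24, with 6 reads in all, had -0.95.

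The same values were obtained for genes that act beside WRKY proteins in defence and hormone signaling. These lists were searched by protein name, and their loci went both ways. Each locus of a list was counted over the transcripts found by the search, not over the whole locus. The shares over all loci sum every transcript of a locus. Of all loci with a read, 14.9% had an interval below 0 and 11% above 0. Among loci with at least 20 reads, 25.3% lay below 0. Kinases of the MAP kinase cascade had 9 loci, of which 5 had an interval below 0 and 4 above 0. Some MAP kinases phosphorylate WRKY proteins in rice and Arabidopsis. The 5 loci below 0 were matched to MAP kinases, Locus_46 also to a MAP kinase kinase kinase. Of the 4 above 0, only Locus_13198 was matched to a MAP kinase. The others were MAP kinase kinase 3 (Locus_5474), MAP kinase kinase 6 (Locus_1726) and the WNK kinase of Locus_1153. Of their 34 transcripts above the cutoff, 9 were called lower in early shoot, where the share over all transcripts above the cutoff was 3.77%. Among the loci of this list with the most reads, the MAP kinase kinase 6 of Locus_1726 had 1464 reads in early shoot and 615 in germination, a log2 ratio of 0.40. Locus_46, matched to MAP kinases and a MAP kinase kinase kinase, had 461 reads in early shoot and 1148 in germination and a log2 ratio of -2.16 (interval from -2.32 to -2.01). Locus_1153, with 1138 reads in early shoot and 457 in germination, is a WNK kinase that carries a MAP kinase kinase as its second name.

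Single MAP kinase loci lay as low as WRKY8, and these were chosen after their values were seen. Locus_27074, matched to MPK3, a kinase activated by pathogen signals, had 1 read in early shoot and 27 in germination (log2 ratio -5.60, interval from -11.0 to -3.0). Locus_6863 and Locus_11760, both matched to a MAP kinase of sugarcane, had 8 and 13 reads in early shoot, against 159 and 195 in germination. Their log2 ratios were -5.16 and -4.75.

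NPR1-like 1, named after the coactivator through which salicylic acid acts in Arabidopsis, was found in 1 locus with 29 reads in early shoot and 94 in germination (log2 ratio -2.54, interval from -3.20 to -1.93). Its 2 transcripts were called lower in early shoot, against 3.77% of all transcripts above the cutoff. Of the 5 loci of chitinases and glucanases, enzymes that attack fungal walls, 4 had an interval below 0 and 0 above it. Of all loci with at least 20 reads, 25.3% lay below 0. Of the 9 chitinase and glucanase transcripts above the cutoff, 7 were called lower and 0 higher in early shoot. The shares over all transcripts above the cutoff were 3.77% lower and 1.4% higher. The chitinase of Locus_2539, matched to the bamboo Bambusa oldhamii, had 116 reads in early shoot and 347 in germination (log2 ratio -2.43). The glucanase of Locus_4064 had 195 reads in early shoot and 422 in germination (log2 ratio -1.96), and that of Locus_15951 had 12 in early shoot and 55 in germination (log2 ratio -3.04). Glucanases also act on callose in growing tissue, and the descriptions do not separate these roles.

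Lipoxygenases, of which some start jasmonate synthesis, had 3 loci, all with intervals below 0. Of all loci with a read, 14.9% lay below 0. The 5 lipoxygenase transcripts above the cutoff were all called lower in early shoot, against 3.77% of all transcripts above it. Locus_14 had 874 reads in early shoot and 1588 in germination (log2 ratio -1.71), and Locus_1505 had 900 in early shoot and 1452 in germination (log2 ratio -1.54). The third, Locus_26445, had 1 read in early shoot and 16 in germination.

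Calmodulin, calmodulin-binding proteins and calcium-dependent kinases had 13 loci, of which 3 lay below 0 and 4 above. Of their 37 transcripts, 0 were called in either direction. The shares over all transcripts above the cutoff were 3.77% lower and 1.4% higher. Their summed log2 ratio was 0.00 (interval from -0.08 to 0.08). Of 10 loci found by the names of pathogen receptors and resistance proteins, 4 had an interval below 0 and 1 above. Of all loci with a read, 14.9% lay below 0 and 11% above. Of the 16 transcripts of this list above the cutoff, 1 was called lower and 2 higher in early shoot. The locus above was Locus_10156, with 1762 reads in early shoot and 373 in germination. It is described as a brassinosteroid receptor kinase, which senses a growth hormone, and it held most of the reads of this list. The resistance protein of Locus_10259 had 73 reads in early shoot and 76 in germination (log2 ratio -0.91), and that of Locus_14140 had 55 in early shoot and 22 in germination (log2 ratio 0.47).

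The WRKY loci were also set beside 4 other transcription factor families, NAC, MYB, bZIP and AP2/ERF. These had 44 transcripts from 22 loci. Of the 22 loci, 7 had an interval below 0, 3 above 0 and 2 below -1, and the median log2 ratio was -0.04. Of their 42 transcripts above the cutoff, 1 was called lower and 0 higher in early shoot. Over all transcripts above the cutoff, 3.77% were called lower and 1.4% higher. Of all loci with at least 20 reads, 25.3% lay below 0 and 9.65% below -1. These shares sum every transcript of a locus, whereas the loci of the families were counted over the transcripts found by name. The summed log2 ratios were -0.28 for NAC, 0.17 for MYB, 0.21 for bZIP and -0.38 for AP2/ERF. The lowest locus, chosen after its value was seen, was a MYB-related protein with 1 read in early shoot and 13 in germination (log2 ratio -4.55). No test of the difference between families was made, since each stage had 1 library.

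**Figure D4:**
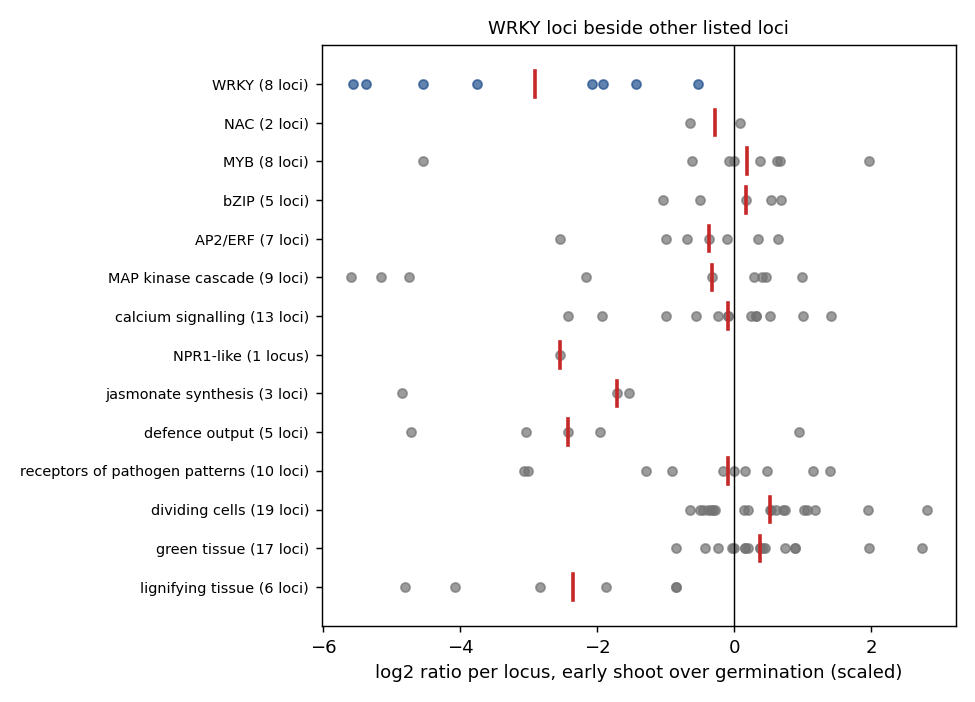
Scaled log2 ratio of early shoot over germination per locus (points) for WRKY and for the other lists, with the median of each list as a red bar. Each locus is summed over the transcripts found by name, and loci without reads in one library are not drawn. The 8 WRKY points lie between -5.57 and -0.53 with a median of -2.92, while the NAC, MYB, bZIP and AP2/ERF points lie on both sides of 0.

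Names that mark tissues differed between the stages as well. The counts below stand beside 14.9% of all loci with a read below 0 and 11% above 0, many of them with too few reads for either. Of the loci with at least 20 reads, 25.3% lay below 0. These shares sum every transcript of a locus, whereas the counts below sum only the transcripts found by each search. For lignifying tissue, searched by the enzymes of lignin synthesis and laccase, 4 of 6 loci had an interval below 0 and 0 above. The list had 82 reads in early shoot and 323 in germination (log2 ratio -2.83, interval from -3.19 to -2.47). Caffeoyl-CoA O-methyltransferase of Locus_27094, an enzyme of lignin synthesis, had 30 reads in early shoot and 119 in germination, and phenylalanine ammonia-lyase of Locus_1080, which opens the phenylpropanoid pathway, had 12 in early shoot and 112 in germination. For dividing cells, searched by histones, cyclins, PCNA, MCM and tubulins, 9 of 19 loci had an interval above 0 and 4 below. That list had 17839 reads in early shoot and 6136 in germination (log2 ratio 0.69, interval from 0.65 to 0.73). An alpha-tubulin of Locus_697 held the most reads, with 7541 in early shoot and 2062 in germination (log2 ratio 1.02). An alpha-tubulin of Locus_2533 had 2920 reads in early shoot and 775 in germination (log2 ratio 1.07), and histone H3 of Locus_1207 had 1964 in early shoot and 653 in germination (log2 ratio 0.74). Tubulin loci held most of the reads of this list at each stage, so its sum mainly followed them. Over the transcripts of this list the median log2 ratio was 0.26. Loci below 0, chosen after their values were seen, included beta-tubulin of Locus_3177 (log2 ratio -0.65) and histone H2B.1 of Locus_7652 (log2 ratio -0.38). The highest locus of the list, chosen in the same way, was cyclin-B2-1 of Locus_54302. It had 227 reads in early shoot and 18 in germination (log2 ratio 2.81). The list also caught a cyclin G-associated kinase and cyclin-dependent kinases, which are no cyclins. For green tissue, 2 of 18 loci lay above 0 and 1 below, with a summed log2 ratio of -0.04. All transcripts found by these searches had reads in at least 1 library. By the description of the transcript with the most early shoot reads, none of the 19 loci of dividing cells was PCNA or MCM. The part of these markers in the lower WRKY reads of early shoot was not tested.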

How the data were processed

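Counts of reads per assembled transcript were deposited by the authors without normalization, 1 table per stage, and were used for all ratios. The authors also deposited an RPKM, which scales each count by transcript length and table total. The submitters' processing notes name TopHat2 2.0.8b and Cufflinks 2.2.1, while the transcript names have the form of a de novo assembly. The assembler, the counting program and the protein search are not given in the sources used here. The protein matches are the authors' own.

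Counts were read with pandas 2.3.3, NumPy 2.4.6 and SciPy 1.17.1 under Python 3.11.15. Intervals are Clopper-Pearson intervals for the share of early shoot among the reads of both libraries. The G-fold value comes from a beta posterior with a flat prior (each count plus 1) and follows the idea of the Gfold program without using it. Its calculation was tested on simulated data. Alternative scalings were the table totals (1.76), TMM of edgeR 4.0.16 under R 4.3.3 (1.76) and the upper quartile (1.7). Other alternatives changed the quantile, the threshold, the cutoff, the summary and the depth. All WRKY transcripts and loci were named. From the other lists the loci with the most reads were named, at most 3 each, unless stated otherwise. The members and lists were chosen with earlier results of these data known.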

Additional observations from a re-analysis of the deposited data

How the results depend on the processing

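The 3 other scalings gave 7, 7 and 6 WRKY calls lower in early shoot, compared with 7, and left 8 loci with an interval apart from 0. Of 27 alternative values for single loci, 26 stayed inside the counting interval. Most of the 27 were rescalings, which raised each ratio by 0.03 to 0.08, too little to leave any of the intervals. Values over all transcripts of a locus could move further, and among the 3 loci with other transcripts the exception was Locus_1357. The number of transcripts called lower in early shoot was 11 with a quantile of 0.05, 1 with a threshold of 2 and 14 with the plain log2 ratio. The summed log2 ratio was -3.53 without Locus_6138, -2.60 with summed RPKM and, in an alternative added after the data were seen, -1.59 without the WRKY8 locus. With at least 20 reads required, 5 loci had an interval apart from 0, since only loci with that many reads were counted, and the same number, 5, resulted with all transcripts of each locus. No paired analysis was possible because each stage had 1 library. Members with under 20 reads, WRKY9, WRKY36, WRKY24 and WRKY3, are limited by depth.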
